A study of Mus musculus with 2 samples.

Results

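The Hox genes of the mouse lie in 4 clusters, and the deposited table of read counts holds all 39 of them, chosen by symbol (Hoxa, Hoxb, Hoxc or Hoxd followed by a number) from 24061 rows. There are 11 in the Hoxa cluster, 10 in Hoxb, 9 in Hoxc and 9 in Hoxd. The study sequenced poly(A) RNA of C57BL/6 mouse embryonic stem cells, which were grown with leukaemia inhibitory factor (LIF) on a layer of mouse embryonic fibroblasts (MEF feeder cells). One library is labelled Pc4-OE, overexpression of the transcriptional coactivator PC4 by a Venus-marked lentivirus, at passages 24 to 37, and the other is labelled control, at passages 17 to 23. With 1 library per group and passages that do not overlap, virus, passage number and culture are confounded with the group and cannot be told apart. Of 3 lines with the virus that the design lists, the labels do not say which gave the library, nor whether feeder cells were removed from either culture.

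Hox genes encode homeodomain transcription factors that give cells their position along the head-to-tail axis. Within a cluster the genes stand in order. Those with low paralogue numbers, at the 3′ end, are used first and reach the hindbrain. Those with high numbers, at the 5′ end, are used later and nearer the tail, and also in the limb ends and genital region. In naive embryonic stem cells the clusters are largely held silent by Polycomb complexes, while fibroblasts keep the Hox pattern of the part of the body they came from. Feeder fibroblasts are usually made from the trunk of midgestation embryos.

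Hox transcripts were scarce in both libraries and more abundant in the library labelled Pc4-OE. The 39 genes together had 1240 of 10194783 counts in the library labelled Pc4-OE, against 541 of 10571463 counts in the library labelled control. As CPM (counts per 1 000 000 reads) scaled by the trimmed mean of M values (CPM), this is 119.8 and 52.0 CPM, 2.31-fold higher (exact 95% interval 2.08 to 2.56). Such intervals cover counting error alone, because the spread between cultures cannot be seen in 1 library per group, and no test of the conditions was possible. The gene named as overexpressed, Sub1, which encodes PC4, went against its label with 2432 counts in the library labelled Pc4-OE against 5522 in the library labelled control, 2.26-fold lower (2.15 to 2.37). Every direction here is therefore that of the labels.

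Markers of the cell types that these cultures could hold are given beside the Hox values. All 24 fibroblast markers were above a ratio of 1 and 19 were at least 2-fold higher, against 11.8% of all genes with at least 20 counts over both libraries; their levels summed to 21703 CPM in the library labelled Pc4-OE and 8836 CPM in the library labelled control, 2.46-fold higher, and no marker was at 0. Of 16 macrophage markers, 15 were at least 2-fold higher, against the same 11.8%, and none was at 0, with sums of 639.4 CPM in the library labelled Pc4-OE and 227.5 CPM in the library labelled control, a ratio of 2.81. Among 14 genes of the core pluripotency network 1, Lin28a, was lower and 0 higher by at least 2-fold, and their sums were 5974 and 7265 CPM. Of all genes with at least 20 counts, 4.02% were lower and 11.8% higher. Pou5f1 stood at 571.4 and 1092 CPM, Sox2 at 456.1 and 461.0 CPM and Nanog at 506.1 and 427.5 CPM in the libraries labelled Pc4-OE and control, so both hold abundant stem cell transcripts. The part of any of these cell types in the Hox values was not tested. In bulk RNA, more cells of a type and more RNA per cell cannot be told apart.

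The short regulatory RNAs of the clusters are shown here because they sit between the Hox genes and are known to repress some of them. MiR-196a is encoded at chr11:96265187-96265208, beside Hoxb9, and at chr15:102973365-102973386, between Hoxc9 and Hoxc10, and miR-196b at chr6:52230129-52230150, between Hoxa9 and Hoxa10 on the minus strand. MiR-10a lies at chr11:96317186-96317208, beside Hoxb4, and miR-10b at chr2:74726074-74726096, within the span of Hoxd4. The mature sequences below are from RefSeq (GRCm38.p6), 5′ to 3′, with the seed (bases 2 to 8) in capitals. Both miR-196 forms share the seed AGGUAGU and both miR-10 forms share ACCCUGU.
miR-196a: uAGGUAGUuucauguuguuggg
miR-196b: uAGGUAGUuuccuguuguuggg
miR-10a: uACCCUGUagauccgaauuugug
miR-10b: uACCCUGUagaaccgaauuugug

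MiR-196a is known to direct cleavage of Hoxb8 RNA in mouse embryos. The 3′ UTRs of the 39 members, from the longest coding GENCODE M21 transcript of each, were searched for the stretch that pairs best with all 22 bases of miR-196a. The Hoxb8 site paired at 21 bases and had a G:U pair at the remaining 1, and the next best, in Hoxd8, paired at 15. The Hoxb8 site lies at chr11:96284888-96284909 on the plus strand (GRCm38), in the 3′ UTR, and is printed with the bases opposite the seed in capitals.
Hoxb8: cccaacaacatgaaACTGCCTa

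An exact match to the 7 seed bases was found in 8 other 3′ UTRs, those of Hoxa4, Hoxa5, Hoxa7 (4 matches), Hoxa9, Hoxb1, Hoxb6, Hoxb7 and Hoxc8 (2 matches). The row of the hairpin gene Mir196a-1 had 17 counts in the library labelled Pc4-OE, against 7 in the library labelled control. Those of Mir196a-2, Mir196b and Mir10b had 0 in both, and Mir10a had 1 and 0. Libraries of poly(A) RNA do not measure mature microRNAs, so these counts say nothing of the level of miR-196a.

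Of the 39 members, 24 had at least 20 counts summed over both libraries and are called measured. It met the 2-fold rule if it differed by a factor of at least 2, in whichever direction, with 1 outside its exact interval. In the library labelled Pc4-OE, 17 of the 24 were at least 2-fold higher and 1 was lower, and 6 met neither. Over all 14213 measured genes, 11.8% were higher and 4.02% lower by the same rule. Among the 4643 other genes with 20 to 269 counts, the count minimum and the highest Hox total, 19.8% were higher and 7.17% lower. The measured Hox genes had a median log2 ratio of 1.40, against -0.01 over all measured genes and 0.20 over those in the Hox count range. The 15 members under the minimum are not in that median, and their summed counts had a ratio of 1.06 (0.73 to 1.54). Without a minimum count, 18 of 38 members with any count were higher and 3 lower. In that setting, 9.84% of all 18718 genes with any count were higher and 3.44% lower.

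**Figure D1:**
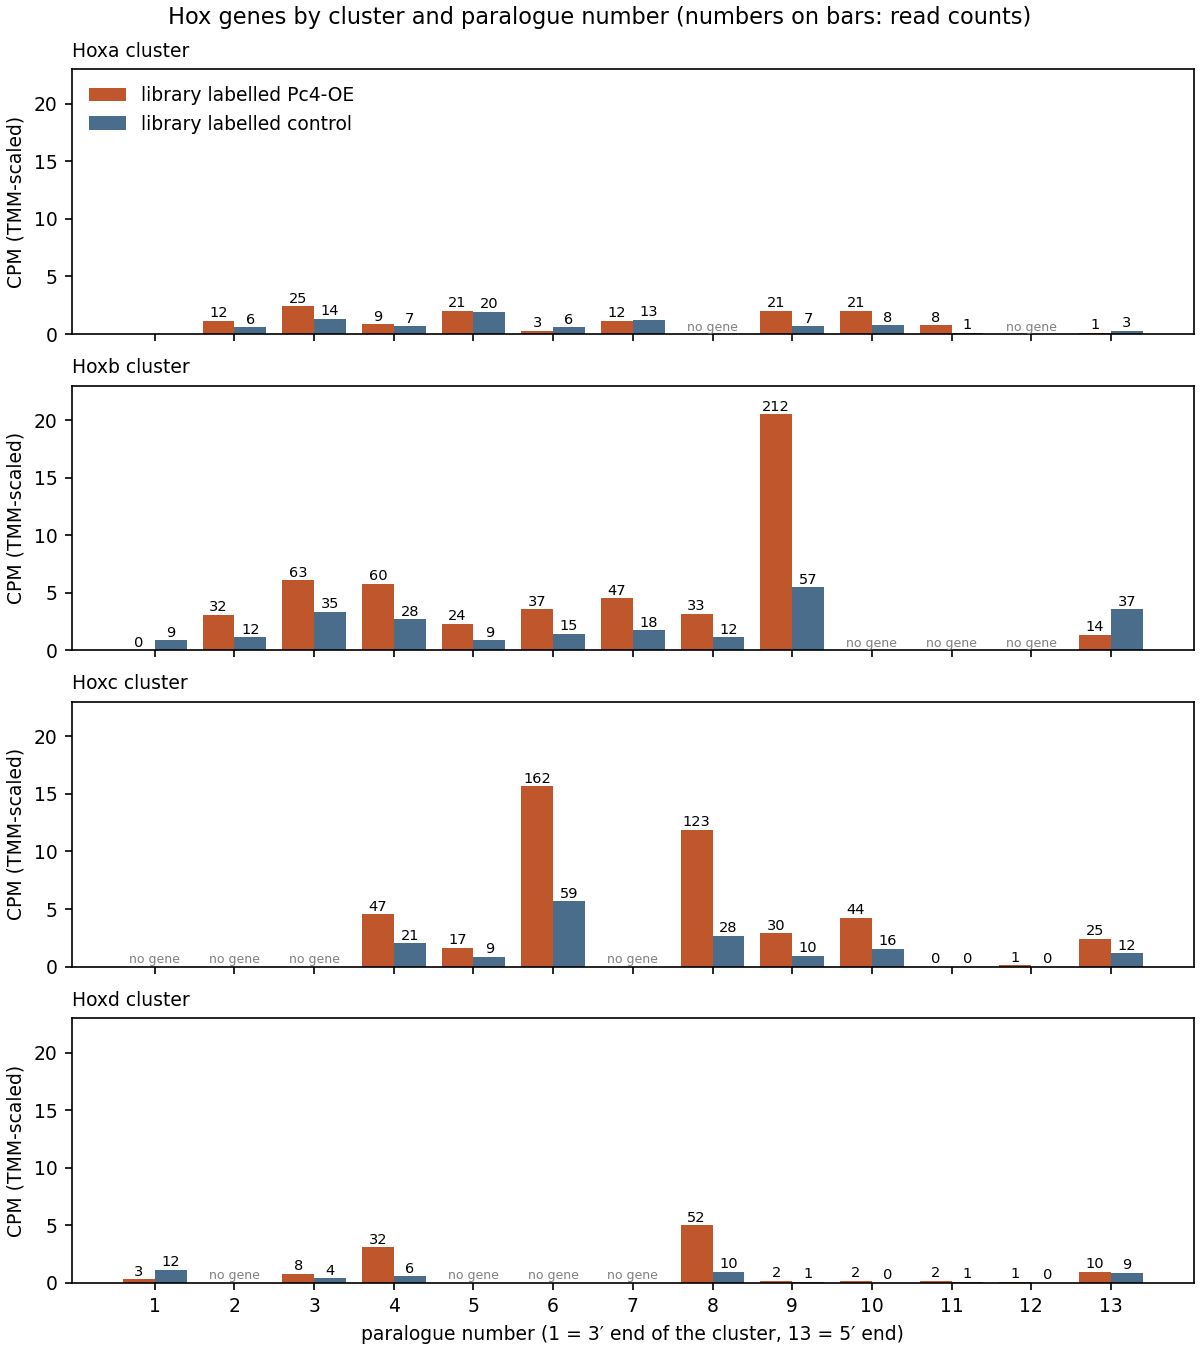
Each panel is a cluster; bars give TMM-scaled CPM (y axis) of each Hox gene shown by paralogue number (x axis) in the library labelled Pc4-OE (left bar) and the library labelled control (right bar), with the read count on each bar. The tallest bars are Hoxb9 (212 and 57 counts), Hoxc6 (162 and 59) and Hoxc8 (123 and 28), and Hoxb13 is among the few genes taller in the control.

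The Hoxb cluster held the most Hox reads, and most of its genes were higher by a similar factor. Its 10 genes, on chromosome 11 from 96194316 to 96368254 (GRCm38), summed to 522 counts in the library labelled Pc4-OE, against 232 in the library labelled control, 2.26-fold higher (1.94 to 2.65). Hoxb9, a group 9 gene that takes part in patterning the ribs, had 212 counts in the library labelled Pc4-OE, against 57 in the library labelled control, which is 20.5 and 5.47 CPM and 3.74-fold higher (2.78 to 5.11). It gave 17.1% of all Hox reads of the library labelled Pc4-OE. Without Hoxb9 the log2 ratio of the cluster's sum was 0.83, against 1.18 with it.

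The genes between Hoxb2 and Hoxb8 ran close together. Hoxb8 had 33 and 12 counts in the libraries labelled Pc4-OE and control, 2.77-fold higher (1.39 to 5.88). Hoxb7 had 47 and 18 counts, 2.63-fold higher (as log2, 0.58 to 2.26), and Hoxb6, known from lateral plate mesoderm, had 37 and 15, 2.48-fold higher (1.33 to 4.87). Hoxb5 had 24 and 9 counts, 2.68-fold higher (1.20 to 6.56). Hoxb4, known for expanding blood stem cells when overexpressed, had 60 and 28 counts, 2.16-fold higher (1.36 to 3.51). Hoxb2, a hindbrain gene, had 32 and 12 counts, 2.68-fold higher (1.35 to 5.72). Hoxb3 had 63 and 35 counts, 1.81-fold higher (1.18 to 2.82), which does not reach 2-fold, and its span overlaps that of Hoxb4, so reads of the pair may be shared. These 7 intervals overlap one another, and differences in ratio among the 7 genes were not tested.

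Both ends of the Hoxb cluster went the other way. Hoxb13, the gene at the 5′ end, used in the tail bud and prostate, had 14 counts in the library labelled Pc4-OE, against 37 in the library labelled control, 2.63-fold lower (1.39 to 5.26), the only call of lower among the 24 measured members. Hoxb1, the gene at the 3′ end, a direct retinoic acid target that specifies a hindbrain segment, had 0 counts in the library labelled Pc4-OE, against 9 in the library labelled control. Set against a floor of 3 counts it was 2.98-fold lower, on too few reads for the count minimum. Its exact interval begins at 1.96-fold lower. Hoxb9 and Hoxb13 are both group 9 to 13 genes of the same cluster, and their intervals lie on opposite sides of 1.

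In the Hoxc cluster every gene with more than 1 count was more abundant in the library labelled Pc4-OE. Its 9 genes, on chromosome 15 from 102921131 to 103036856, summed to 449 and 155 counts in the libraries labelled Pc4-OE and control, 2.91-fold higher (2.42 to 3.52). Hoxc8, which sets thoracic identity in vertebrae and motor neurons, had 123 counts in the library labelled Pc4-OE, against 28 in the library labelled control, 4.42-fold higher (2.91 to 6.92). Hoxc6, a thoracic and forelimb-level gene, had 162 and 59 counts, 2.76-fold higher (2.04 to 3.79). Hoxc9 had 30 and 10 counts, 3.02-fold higher (1.44 to 6.92), and Hoxc10, a lumbar and hindlimb-level gene, had 44 and 16, 2.77-fold higher (1.53 to 5.25).

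The remaining Hoxc genes were on fewer reads. Hoxc4 had 47 counts in the library labelled Pc4-OE, against 21 in the library labelled control, 2.25-fold higher (1.32 to 3.97). Hoxc13, which controls hair keratin genes, had 25 and 12 counts, 2.10-fold higher (1.01 to 4.58), the smallest ratio that met the rule. Hoxc5 had 17 and 9 counts, a ratio of 1.90 (0.80 to 4.84) that did not. Hoxc12 had 1 count and 0, and Hoxc11 had 0 in both libraries. A count of 0 allows up to 0.290 CPM in the library labelled Pc4-OE and 0.288 CPM in the library labelled control.

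Reads of the Hoxd cluster came mostly from its middle only in the library labelled Pc4-OE. The 9 genes of the cluster, on chromosome 2 from 74668225 to 74765142, summed to 112 counts in that library. They summed to 43 in the library labelled control, so the sum was 2.62-fold higher (1.83 to 3.82). Hoxd4 and Hoxd8 together gave 84 of the 112 counts and 16 of the 43. Hoxd4, a hindbrain and cervical gene, had 32 and 6 counts, 5.37-fold higher (2.21 to 15.7), and Hoxd8 had 52 and 10, 5.23-fold higher (2.63 to 11.5). Both are called higher, with the largest ratios among the measured members, on few control reads: with 0.5 CPM added to each library their log2 ratios of 2.42 and 2.39 became 1.74 and 1.92. The span of Hoxd4 lies within that of Hoxd3, so reads of this pair may be shared too. The other Hoxd genes were under the count minimum. Hoxd13, the digit gene at the 5′ end, had 10 and 9 counts. Hoxd9, Hoxd10, Hoxd11 and Hoxd12 had at most 2 counts in either library, and Hoxd3 had 8 and 4. Hoxd1, at the 3′ end, had 3 counts in the library labelled Pc4-OE, against 12 in the library labelled control, 3.98-fold lower (log2 ratio -1.99, interval -4.46 to -0.10).

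The Hoxa cluster was the least different. Its 11 genes, on chromosome 6 from 52155367 to 52260880, summed to 157 counts in the library labelled Pc4-OE, against 111 in the library labelled control, 1.42-fold higher (1.11 to 1.83). That interval does not overlap that of Hoxc (2.42 to 3.52) and meets that of Hoxd (1.83 to 3.82). It does not overlap that of Hoxb (1.94 to 2.65), but this separation rests on Hoxb9: without it the log2 ratio of Hoxb was 0.83, inside the interval of Hoxa (0.15 to 0.87 as log2). Both Hoxa genes that met the rule lie on the 5′ side. Hoxa9, a regulator of blood progenitors, had 21 and 7 counts, 3.02-fold higher (1.24 to 8.40), and Hoxa10, known from the uterus and lumbar spine, had 21 and 8, 2.64-fold higher (1.12 to 6.89). Hoxa11 had 8 counts and 1 count, and Hoxa13 had 1 and 3.

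The middle genes of Hoxa were nearly level. Hoxa5, needed for lung and neck skeleton, had 21 counts in the library labelled Pc4-OE, against 20 in the library labelled control, and Hoxa7 had 12 and 13. Hoxa3, a thymus and throat gene, had 25 and 14 counts, 1.80-fold higher (0.90 to 3.74). Hoxa2, the second pharyngeal arch gene, had 12 and 6 counts, Hoxa4 had 9 and 7 and Hoxa6 had 3 and 6. Over Hoxa4 to Hoxa7 the sums were 45 and 46 counts, a ratio of 0.98 (0.64 to 1.52). In Hoxb, Hoxb4 to Hoxb8 had 201 and 82 counts, a ratio of 2.47 (1.90 to 3.23). In Hoxc, Hoxc4 to Hoxc8 had 349 and 117, a ratio of 3.00 (2.43 to 3.73). These stretches are not fully alike, because both include a group 8 gene and Hoxa has none. Of the Hoxc counts, Hoxc8 gave 123 in the library labelled Pc4-OE and 28 in the library labelled control.

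**Figure D2:**
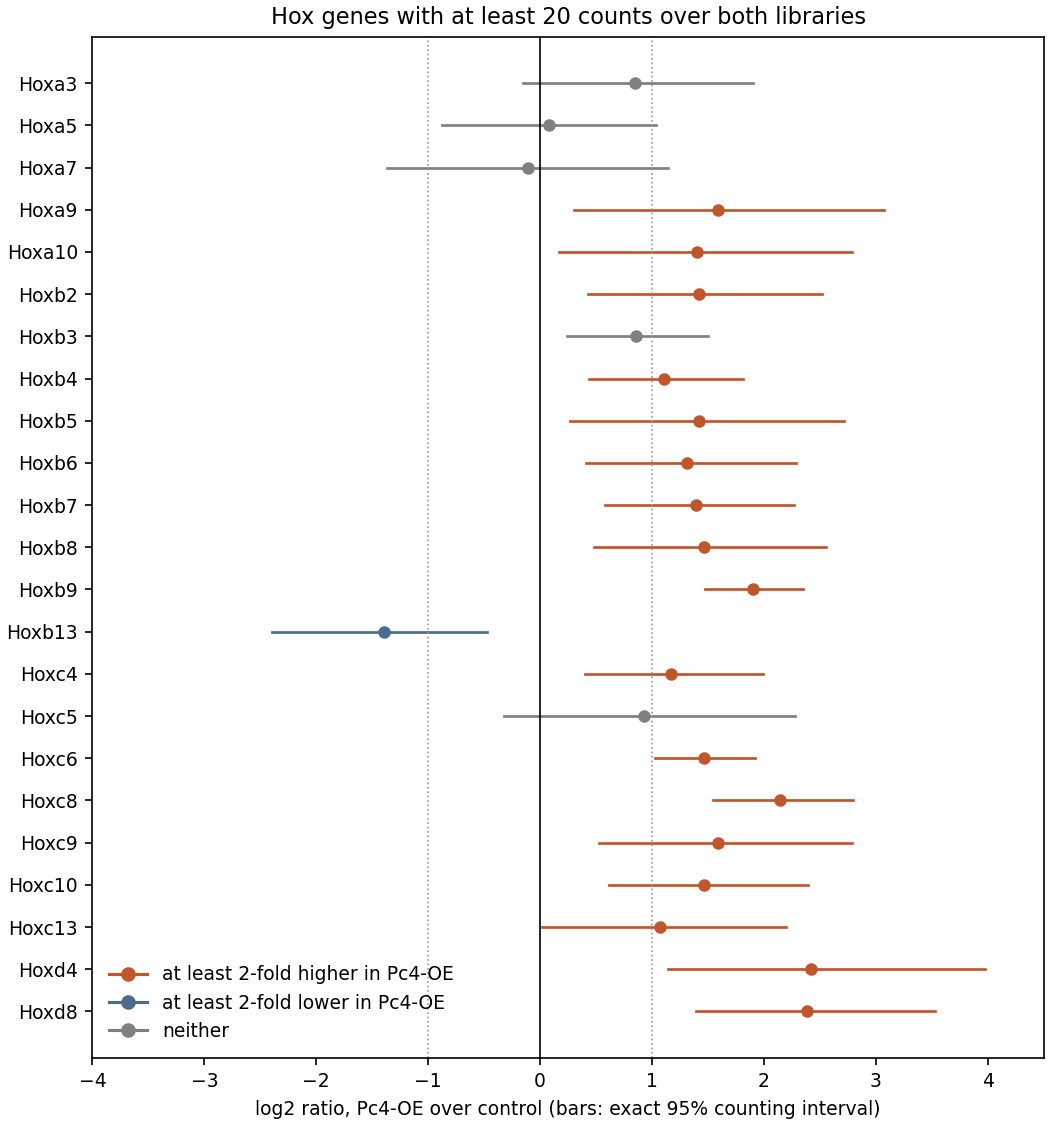
Points give the log2 ratio of Pc4-OE over control (x axis) for Hox genes with at least 20 counts (1 is not shown), from Hoxa at the top to Hoxd at the bottom, and bars the exact 95% counting interval; dotted lines mark a 2-fold ratio. Of those drawn, 17 are at least 2-fold higher, Hoxb13 is lower (log2 ratio -1.39), and Hoxa5 (0.08) and Hoxa7 (-0.11) stand near 0.

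By position, all 3 classes of paralogue groups had a sum above a ratio of 1. Groups 4 to 8 summed to 679 counts in the library labelled Pc4-OE, against 261 in the library labelled control, 2.62-fold higher (2.27 to 3.03). Groups 9 to 13 summed to 394 and 162, 2.45-fold higher (2.03 to 2.96), or a log2 ratio of 0.80 without Hoxb9, against 1.29 with it. Groups 1 to 3 summed to 167 and 118, 1.42-fold higher (1.12 to 1.82), an interval that does not overlap those of the other classes, though without Hoxb9 the value of groups 9 to 13 lies inside it (0.16 to 0.86 as log2). Within groups 1 to 3 the members differed in direction: Hoxb2 was higher, while Hoxb1 and Hoxd1 had fewer reads in the library labelled Pc4-OE.

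Single paralogue groups were compared after their values had been seen. Group 8 had the highest ratio among groups with at least 20 counts, with 208 and 50 counts in the libraries labelled Pc4-OE and control, 4.19-fold higher (3.06 to 5.82), and group 9 followed with 265 and 75, 3.55-fold higher (2.74 to 4.66). All 3 group 8 genes, Hoxb8, Hoxc8 and Hoxd8, met the rule. Group 13 was mixed, with 50 and 61 counts and a log2 ratio of -0.28 (-0.85 to 0.29), since Hoxc13 was higher and Hoxb13 lower.

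**Figure D3:**
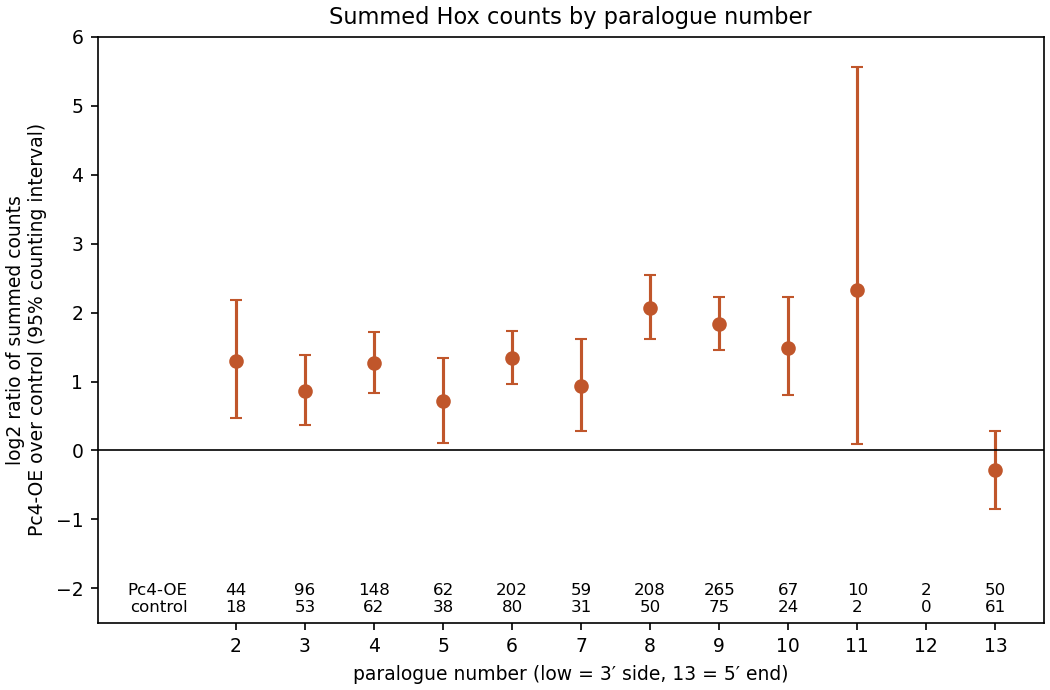
Points give the log2 ratio of Pc4-OE over control (y axis) of counts summed over all members of a paralogue number (x axis), with exact 95% counting intervals; the sums stand below, Pc4-OE above control, and group 12 (2 and 0 counts) has no point. Group 1 is not shown, so the plot does not cover the 3′ end of the series; groups 2 to 11 are above 0, and the interval of group 13 (-0.28) includes 0.

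Levels of different genes were compared per kilobase of the longest coding transcript. Hoxc6 led both libraries, at 9.90 CPM per kb in the library labelled Pc4-OE and 3.58 in the library labelled control, and Hoxb9 came next in both, at 7.96 and 2.13 CPM per kb. Hoxc8 followed at 6.36 CPM per kb in the library labelled Pc4-OE and 1.44 in the library labelled control, and Hoxb7 at 3.52 and 1.34. Hoxb13 stood at 0.61 CPM per kb in the library labelled Pc4-OE, rank 23 of 39, and at 1.61 in the library labelled control, rank 3. Across the 39 genes the counts of both libraries had a Spearman correlation of 0.80, a description of genes that share the same libraries and transcript lengths.

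Rows of noncoding RNA in and beside the clusters were read together with the genes around them. Gm15055, which RefSeq lists as Halr1 with the synonym Haunt, lies at chromosome 6 from 52102949 to 52113684, beyond the 3′ end of the Hoxa cluster. In stem cells its locus is known to influence how the Hoxa genes are induced. It had 80 counts in the library labelled Pc4-OE, against 318 in the library labelled control, 3.95-fold lower (3.08 to 5.11), more reads in the control than any Hox gene. Gm53, a noncoding RNA gene between Hoxb13 and Hoxb9, had 107 and 44 counts, 2.45-fold higher (1.71 to 3.56), and Mir196a-1, with 17 and 7 counts, lies just beyond its annotated end. Mira, between Hoxa6 and Hoxa7, had 19 and 12 counts and Hoxa11os 8 and 2. Hotair, of the Hoxc cluster, had 1 count and 0, while Hottip and Hoxd3os1 had 0 in both libraries. Whether strand was used in counting is not given in the sources used here, so reads of antisense partners cannot be told apart.

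Genes beside the clusters were compared in the same way. Within 1 Mb of the clusters 90 other genes were measured, of which 8 were at least 2-fold higher, 4 lower and 45 above a ratio of 1, near the background of 11.8% higher and 4.02% lower. Their median log2 ratio was 0.00 and their range -1.98 to 1.99. Of a list of 15 measured neighbours, 0 met the rule either way and the median was 0.16. Mtx2, the neighbour of the Hoxd cluster, had 464 and 475 counts in the libraries labelled Pc4-OE and control, and Lnp on the other side had 537 and 482. Skap2, beyond Hoxa, had 467 and 654, and Ttll6, beyond Hoxb, had 120 and 100. Evx1 and Evx2, homeobox genes next to the 5′ ends of Hoxa and Hoxd, had 0 counts in both libraries.

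Start regions are shown for Hoxb8 and Hoxd4, which were higher, and for Hoxb1 and Hoxd1, which had fewer reads in the library labelled Pc4-OE, from the same pair of clusters. Each is the RefSeq promoter on the plus strand (GRCm38.p6), 250 bases before to 50 after an annotated start: chr11:96281655-96281954, chr2:74721728-74722027, chr11:96365508-96365807 and chr2:74762730-74763029 in that order. Capitals mark TGATNNAT, the composite site of PBX with a Hox protein, and TATAAA, the TATA box, on either strand, and the marked motifs do not overlap.
Hoxb8: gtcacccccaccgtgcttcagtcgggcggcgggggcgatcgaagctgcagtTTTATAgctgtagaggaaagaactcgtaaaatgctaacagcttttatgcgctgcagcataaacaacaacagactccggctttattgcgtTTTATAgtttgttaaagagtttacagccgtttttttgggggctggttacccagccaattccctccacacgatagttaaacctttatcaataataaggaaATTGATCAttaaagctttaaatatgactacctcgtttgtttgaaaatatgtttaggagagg
Hoxd4: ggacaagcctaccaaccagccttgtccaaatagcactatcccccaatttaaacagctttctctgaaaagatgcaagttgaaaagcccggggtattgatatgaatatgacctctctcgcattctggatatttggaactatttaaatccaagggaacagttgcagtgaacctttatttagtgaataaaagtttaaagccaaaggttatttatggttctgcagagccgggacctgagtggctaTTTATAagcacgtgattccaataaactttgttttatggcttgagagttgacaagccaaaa
Hoxb1: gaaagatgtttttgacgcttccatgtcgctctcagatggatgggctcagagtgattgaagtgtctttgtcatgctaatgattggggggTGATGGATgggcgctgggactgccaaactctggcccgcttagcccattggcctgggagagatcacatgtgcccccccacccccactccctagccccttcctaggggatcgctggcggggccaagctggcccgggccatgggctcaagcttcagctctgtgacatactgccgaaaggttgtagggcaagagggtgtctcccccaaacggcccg
Hoxd1: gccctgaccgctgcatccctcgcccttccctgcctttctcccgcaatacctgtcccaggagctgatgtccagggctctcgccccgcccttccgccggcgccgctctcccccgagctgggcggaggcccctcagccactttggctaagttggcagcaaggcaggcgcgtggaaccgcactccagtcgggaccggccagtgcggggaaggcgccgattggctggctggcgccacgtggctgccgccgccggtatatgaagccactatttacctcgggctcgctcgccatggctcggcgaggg

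The table of promoters matched 22 of the 39 members, with 24 start regions. TGATNNAT was in 4 of these 24 (16.7%), against 8.85% of all 32851 promoters, and TATAAA also in 4 of 24 (16.7%), against 13.6% of all. The composite site stands in both Hoxb8 and Hoxb1, a gene that was higher and another that had fewer reads. CG dinucleotides numbered 13 in the Hoxb8 region, 4 in Hoxd4, 10 in Hoxb1 and 29 in Hoxd1, with a median of 14.5 over the Hox regions and 7 over all promoters. A match of letters is a description and does not show that a factor binds there.

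Cofactors and regulators of the Hox genes were compared next. Hox proteins bind DNA together with TALE homeodomain proteins of the PBX, MEIS and PREP (Pknox) families. Of 9 such genes, 1 was at least 2-fold higher and 0 lower, near the 11.8% and 4.02% of all measured genes. Their median log2 ratio was 0.56. Meis1 had 128 counts in the library labelled Pc4-OE, against 36 in the library labelled control, 3.58-fold higher. Pbx3 had 114 and 174 counts, a log2 ratio of -0.60.

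Of 18 measured regulators of the clusters, 2 were at least 2-fold higher, 1 was lower and 15 were neither, again near the 11.8% and 4.02% of all measured genes. Their median was -0.30, with 13 below a ratio of 1. Cdx1, a Wnt and retinoic acid target that activates Hox genes in the tail bud, had 10 counts in the library labelled Pc4-OE, against 59 in the library labelled control, 5.86-fold lower. Cdx2 and Cdx4 had 0 counts in the library labelled Pc4-OE, against 3 and 2 in the library labelled control. Gdf11, a signal for the trunk-to-tail transition, had 71 and 26 counts, 2.75-fold higher. The Polycomb genes Ezh2, Eed and Suz12 had log2 ratios of -0.56, -0.49 and -0.19, none of which reached 2-fold, and Kmt2a, which maintains Hox expression, had a log2 ratio of 0.06.

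Genes outside the clusters that mark position or mesenchyme were mostly higher. Of 17 measured, 9 were at least 2-fold higher, 1 was lower and 7 neither, with a median of 1.19. Over all measured genes, 11.8% were higher and 4.02% lower. Tbx18 had 76 counts in the library labelled Pc4-OE, against 9 in the library labelled control, 8.50-fold higher, and Tbx15, a gene of trunk and limb mesenchyme, had 245 and 51, 4.83-fold higher. Twist2 (590 and 152 counts, 3.91-fold higher) and Prrx1 (2095 and 660, 3.19-fold higher) are broad mesenchyme genes. Of the hindlimb genes, Tbx4 had 91 and 46 counts, a log2 ratio of 0.99 (0.47 to 1.54), and Pitx1 had 1 count in each library, while Tbx5, which marks the forelimb, had 10 and 3.

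Markers of neural, endothelial and epithelial cells were compared last, beside the 11.8% higher and 4.02% lower of all measured genes. Of 8 measured neural markers, 0 were higher and 1, Sox1, was lower, with a median log2 ratio of -0.16 and sums of 315.2 and 383.5 CPM in the libraries labelled Pc4-OE and control. Dcx was at 0 in both. Of 7 measured endothelial markers, Vwf was higher and Esam lower, with a median of 0.13 and sums of 85.1 and 62.1 CPM, and Emcn was at 0 in both. Of 7 measured epithelial markers, 3 were higher (Cldn7, Cldn6 and Krt18) and 0 lower, with a median of 0.78 and sums of 764.8 and 569.4 CPM. Krt14 was at 0 in the library labelled Pc4-OE and Trp63 in the library labelled control.

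**Figure D4:**
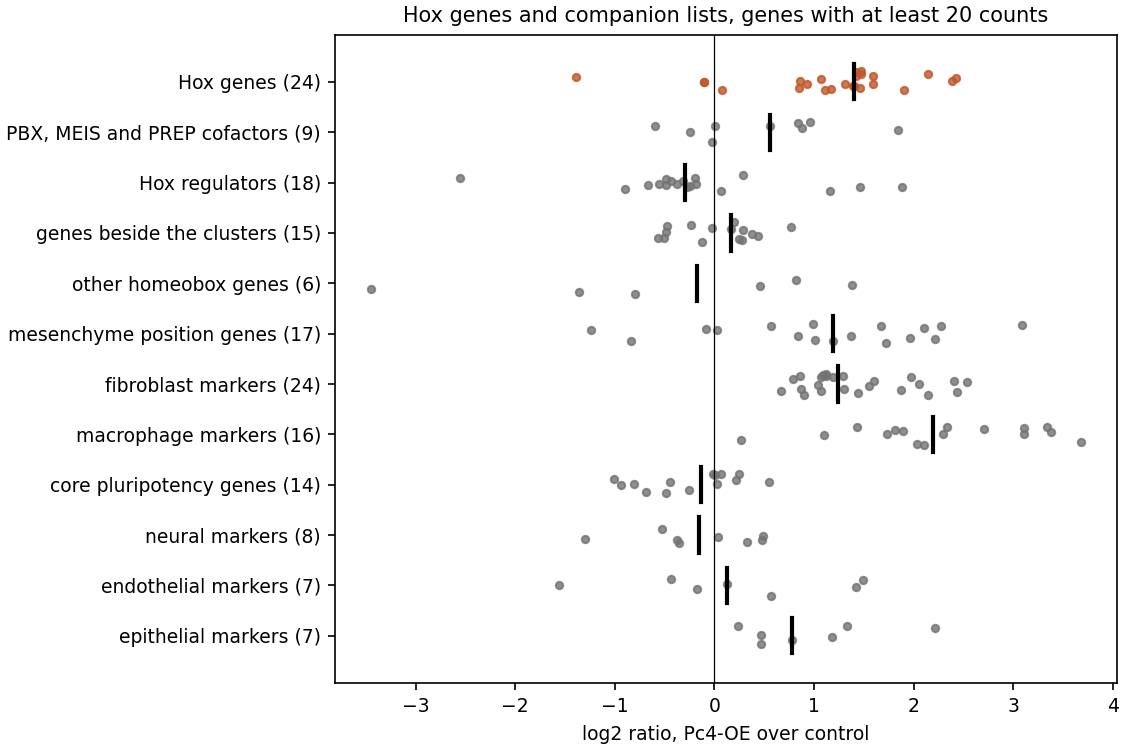
Each point is a gene with at least 20 counts and each thick line a list's median; the x axis gives the log2 ratio of Pc4-OE over control, and the number measured stands after the list's name. The Hox genes (median 1.40) lie near the mesenchyme position genes (1.19) and fibroblast markers (1.24), below the macrophage markers (2.20) and to the right of the core pluripotency genes (-0.13) and Hox regulators (-0.30).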

How the data were processed

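The authors deposited 1 table of whole-number read counts per gene, not normalized, with 1 column per library, named by the sample's title; 0 other columns of sample values were present. Per the submitters' processing notes, STAR 2.4.1c and featureCounts were used with mm10; which annotation, strand option and rule for multi-mapped reads were used is not given in the sources used here. By RefSeq spans, 6 pairs of Hox genes overlap (Hoxa3 with Hoxa4, Hoxa5 and Hoxa6, Hoxb3 with Hoxb4, Hoxd3 with Hoxd4, Hoxd10 with Hoxd11), so their counts are less certain.

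Counts were scaled to CPM by TMM (edgeR 4.0.16). Ratios are Pc4-OE over control without a pseudocount, with exact (Clopper-Pearson) 95% intervals, which run from 0.374 to 2.68 for a ratio of 1 at 20 counts. With 1 library per group no p-value was computed. Positions came from RefSeq GRCm38.p6, the assembly mm10 copies, for 39 of 39 members, and lengths and 3′ UTRs from GENCODE M21. Alternatives were library totals, DESeq2 1.42.0 size factors, other count minimums, a pseudocount of 0.5 CPM, an assumed coefficient of variation of 0.4, sums without the top member and sums per kb. The calculation was tested on simulated data. Members, 11 gene lists and tests were chosen with earlier results of these data known. A few genes, 1 of them a measured Hox gene, are not reported here singly. Named were the other measured Hox genes, up to 4 genes per list that met the rule by the interval bound nearest to 1, and a few fixed genes; the noncoding and flanking genes, further genes of the lists that did not meet the rule and the single paralogue groups were named after their values were seen.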

Additional observations from a re-analysis of the deposited data

How the results depend on the processing

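The count of Hox genes at least 2-fold higher was 17 with library totals and with DESeq2 size factors. In these settings 12.5% and 11.7% of all measured genes were higher. The Hox count was 17 with at least 10 counts and 18 without a minimum, where 11.8% and 9.84% of all genes were higher. With 0.5 CPM added it was 14, where 10.6% of all genes were higher and Hoxa10, Hoxb4 and Hoxc13 no longer met the rule. It was 9 of 12 measured with at least 50 counts, where 10.7% of all measured genes were higher. With an assumed coefficient of variation of 0.4 between cultures it was 4, a setting under which 4.07% of all genes were higher. The count of lower Hox genes was 1 in the main setting, where 4.02% of all measured genes were lower. It stayed 1 with library totals, DESeq2 size factors, at least 50 counts and 0.5 CPM added, where 3.36% to 4.18% of all genes were lower. It was 2 with at least 10 counts (4.06% of all genes), 3 with no minimum (3.44%) and 0 with the assumed coefficient of variation (0.65%). Without Hoxb9, the member with the most counts, the log2 ratio of the Hoxb sum was 0.83 and that of groups 9 to 13 was 0.80; both stayed above 0. The other sums over all Hox genes, the 4 clusters and the 3 classes of paralogue groups stayed within their counting intervals under library totals, DESeq2 size factors, counts per kb and removal of the top member; single paralogue groups and stretches of 1 cluster were not recomputed. Depth limits each of the 15 members under 20 counts taken singly. Together they had 62 counts in the library labelled Pc4-OE, against 59 in the library labelled control, a ratio of 1.06 (0.73 to 1.54). That interval lies below the interval of all 39 genes (2.08 to 2.56), so as a sum these members did not share the higher level. No paired analysis was possible because each group has 1 library.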

Other observations

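Of 17 ParaHox, NK and related homeobox genes, 6 were measured, of which 1 was at least 2-fold higher and 2 were lower, with a median log2 ratio of -0.17. Over all measured genes, 11.8% were higher and 4.02% lower. Gbx2, a homeobox gene of the mid-hindbrain boundary that LIF signalling also sustains in stem cells, had 96 counts in the library labelled Pc4-OE, against 1055 in the library labelled control, 10.9-fold lower. En1 and En2, the engrailed pair, differed in direction: En1 had 96 and 37 counts, 2.61-fold higher, and En2 had 17 and 44, 2.57-fold lower. The ParaHox genes Gsx1, Gsx2 and Pdx1 had at most 3 counts in either library.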
